A study of Mus musculus with 2 samples.

Results

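The genes described here carry the symbols of protein subunits of the 5 oxidative phosphorylation complexes. Their transcripts were read by single-cell RNA sequencing (scRNA-seq) of small tumours that grew from B16F10 cells, a melanoma line of the mouse, injected under the skin. Members were chosen by symbol alone, as the mt- genes for protein subunits and the Nduf, Sdh, Uqcr, Cox and Atp5 families, without pseudogenes and without Ndufa4l2. This gave 96 of the 31053 genes listed. Of these, 13 lie in the mitochondrial genome (7 of complex I, 1 of complex III, 3 of complex IV and 2 of complex V) and 83 in the nucleus (35 of complex I, 4 of complex II, 8 of complex III, 19 of complex IV and 17 of complex V). Ndufa4 was counted with complex IV. The choice by symbol leaves out some subunits, among them Cyc1 of complex III. Cox7b2 and Cox8c had 0 UMIs, and Atp5o was listed under 2 gene identifiers, 1 of which had 1 UMI.

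The study asked what ATF4 of the host, a transcription factor of the integrated stress response, does for a growing tumour. The WT library came from Atf4wt/wt hosts and the KO library from Atf4D/D hosts, and each pooled 2 tumours from mice aged 11 weeks, labelled as male and female. All hosts were C57BL/6 mice that carried a tamoxifen-inducible, whole-body Rosa26 CreERT2 and received tamoxifen, so both groups share the Cre and the drug. The injected melanoma cells kept their own Atf4, so a KO to WT difference in melanoma cells is one between tumours grown in the 2 kinds of host. Each genotype had 1 library, which allows no test between them, and the differences below are differences between these libraries. Intervals are at the 95% level and cover counting error only.

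In oxidative phosphorylation, complexes I and II pass electrons from NADH and succinate to ubiquinone, complex III passes them on to cytochrome c, and complex IV to oxygen. Complexes I, III and IV pump protons across the inner mitochondrial membrane, and complex V, the ATP synthase, uses their return to make ATP. The mitochondrial genome encodes core subunits of every complex but complex II, transcribed as long RNAs that are cut into single messages, while all other subunits are made from nuclear genes and imported.

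NRF1 and GABP, an ETS factor, are known regulators of many nuclear members, and YY1 sites are known from promoters of this group. RefSeq promoter windows (GRCm38.p6) were given for 68 of the 83 nuclear members and were searched on both strands for 3 sets of letters. The NRF1 letters GCATGCGC were in 10 of 68 member promoters (14.7%) and in 3.02% of those of 26957 other genes. The ETS letters CCGGAAGT were in 7.35% and 4.3%, and the YY1 letters AAGATGGC in 14.7% and 3.16%. At least 1 of the 3 was in 24 members (35.3%) and in 9.85% of other genes. The windows below show 5 members with the NRF1 letters, in capitals, because these genes recur in the results and did not move alike.
Atp5k: ttcactgcggcGCATGCGCctttctggctt
Sdhb: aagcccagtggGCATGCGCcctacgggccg
Ndufa6: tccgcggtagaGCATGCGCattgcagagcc
Ndufa11: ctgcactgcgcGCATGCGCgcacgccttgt
Cox6a1: aggaacggggcGCATGCGCgctctcgctcc
They lie at chr5:108434429-108434458 (minus strand), chr4:140961206-140961235 (plus strand), chr15:82354356-82354385 (minus strand), chr17:56717693-56717722 (plus strand) and chr5:115349100-115349129 (minus strand). The NRF1 letters partly overlap their own reverse complement, so 1 place can match on both strands. The letters took this form after longer forms had been searched, so the shares only describe these windows. No binding was measured.

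The WT library held 6304 barcodes and 38417113 UMIs and the KO library 5474 barcodes and 38290024 UMIs, with 10 barcodes in common. The limits of the study, 200 to 5000 genes and at most 7.5% mitochondrial UMIs, kept 3861 and 3557 cells at medians of 3920 and 6279 UMIs. Markers gated 1818 WT and 2016 KO melanoma cells, 199 and 235 cancer-associated fibroblasts (CAFs), 1194 and 888 macrophages, 61 and 23 endothelial cells and 11 and 8 T/NK cells, and left 578 and 387 cells ungated. Each class was led by its own marker list. The melanoma list stood at 14022 and 10440 CPM (UMIs per 1000000 non-mitochondrial UMIs of the class) in melanoma cells and between 406 and 921 CPM in the host classes, so melanoma RNA was found in all of them. Atf4 stood at 263 CPM in CAFs of WT and 41.7 CPM in those of KO, at 190 and 41.5 CPM in macrophages, and at 242 and 223 CPM in melanoma cells. No WT cell of any class had a Y-linked UMI, against 51 of 235 KO CAFs and 134 of 888 KO macrophages, which goes against the label of mixed sexes for the WT pool. Xist was detected in 159 of 199 WT and 60 of 235 KO CAFs, and in 807 of 1194 WT and 101 of 888 KO macrophages. Host ratios over all cells thus also compare pools that differ in these signs of sex. Selected values of host classes are therefore also given for cells in which Xist but no Y-linked gene was detected, called Xist+Y- cells. Globin RNA of red cells stood at 1837 and 0.526 CPM in macrophages of WT and KO, and its part in the differences was not tested.

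Melanoma cells held the most subunit RNA from nuclear genes among the 5 gated classes, and CAFs the least. The CPM scale is the same for both genomes. The nuclear sum in melanoma cells was 42794 CPM (42701 to 42887) in WT and 40694 CPM (40606 to 40782) in KO. In CAFs it was 20849 CPM (20527 to 21175) and 20095 CPM (19806 to 20388). Macrophages lay between them at 26820 CPM (26622 to 27019) and 25580 CPM (25354 to 25809). Endothelial cells, at 26168 CPM (25543 to 26805) and 25646 CPM (24604 to 26721), had intervals that overlapped those of macrophages in each library. The T/NK sums of 25599 and 27606 CPM rested on 252 and 219 UMIs.

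The mitochondrial sum had melanoma cells first and CAFs last in WT, at 63211 and 36632 CPM. In KO the melanoma sum was 54692 CPM and the endothelial sum 55870 CPM (54327 to 57446), and these were not separated by the endothelial interval. Macrophages had 49005 and 49078 CPM, and KO CAFs 33907 CPM. Among kept cells the balance of the genomes was lowest in melanoma cells. Melanoma cells had 1.48 mitochondrial UMIs per nuclear member UMI in WT and 1.34 in KO, CAFs 1.76 and 1.69, macrophages 1.83 and 1.92, and endothelial cells 2.0 and 2.18. The limit of 7.5% removed 47.6% and 42.9% of melanoma cells but 13.9% and 10.3% of CAFs. With no limit the ratios were 2.13 and 2.0 in melanoma cells, 2.01 and 1.99 in CAFs, and 2.13 and 2.20 in macrophages. Melanoma cells were then no longer the lowest class.

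**Figure D1:**
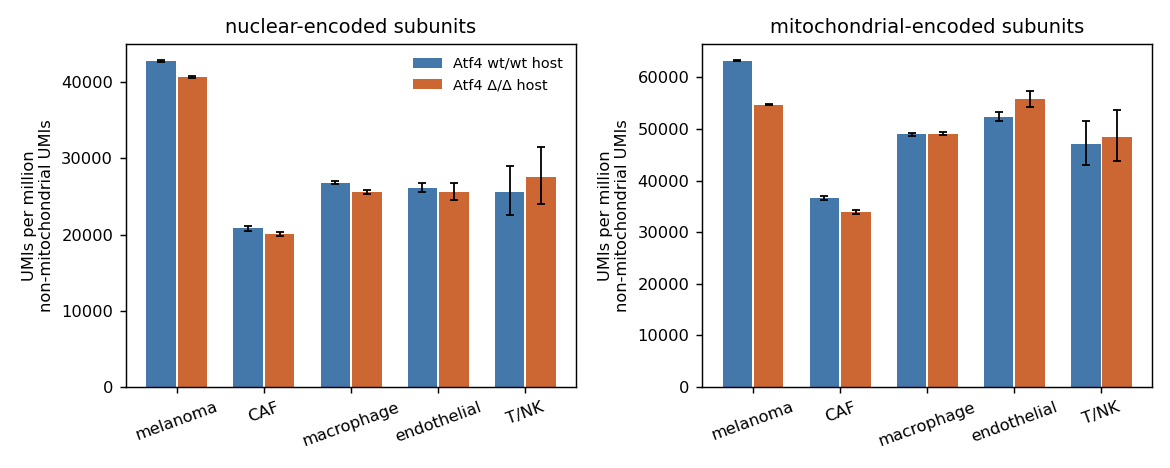
Summed CPM of the nuclear-encoded and the mitochondrial-encoded members by cell class, for the Atf4 wt/wt and the Atf4 Δ/Δ host libraries, with 95% counting intervals. Nuclear sums reach 42794 CPM in WT melanoma cells and are lowest in CAFs, at 20849 and 20095 CPM.

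Every nuclear complex was lower in CAFs and in macrophages than in melanoma cells, in both libraries. The log2 difference of the nuclear sum from melanoma was -1.04 in WT and -1.02 in KO for CAFs, and -0.67 in both libraries for macrophages. Complex II, which also serves the citric acid cycle, lay farthest below melanoma in CAFs, at -1.48 and -1.39. Complex III followed at -1.19 and -1.21 and complex V was nearest at -0.93 and -0.91. Genes were tested with at least 200 UMIs over the 2 classes in each library. Melanoma cells held 19008679 and 20264170 non-mitochondrial UMIs, CAFs 764926 and 912351, and macrophages 2626834 and 1902084. Genes high in melanoma cells thus passed more easily, and the counts of members and of all genes both lean towards lower. In CAFs 56 of 74 members tested were at least 1.5-fold lower in both libraries and 0 were higher, where 37% of all genes were lower and 12.4% higher. All 8 complex III members were among the 56. In macrophages 41 of 74 were lower and 0 higher, against 43.3% and 15.3% of all genes. The share of members that were lower was above this background, in which many genes were lower, but closer to it than in CAFs. The median member was at -1.01 and -0.98 in CAFs, where the median of all genes was -0.48 and -0.49, and at -0.70 and -0.69 in macrophages, where it was -0.56 and -0.57. The size depends on the scale: with median-ratio size factors the sums were at -0.57 and -0.54 in CAFs and at -0.12 and -0.10 in macrophages.

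Sdhb, the iron-sulphur subunit of complex II (chr4:140961203-140979193, GRCm38), had the widest gap in CAFs. It stood at 637 and 614 CPM in melanoma cells of WT and KO, at 132 and 135 CPM in CAFs and at 196 and 198 CPM in macrophages, so the host levels were alike in the 2 libraries and well under those of melanoma cells. Its log2 difference in CAFs was -2.27 (-2.57 to -1.99) and -2.19 (-2.46 to -1.93). Sdhd, a membrane anchor of complex II, was also past 1.5-fold lower in CAFs in both libraries, at -1.48 and -1.17. Sdhc was at -0.46 and -0.41 there, and Sdha, the flavoprotein, at -0.61 and -0.46.

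Ndufa4, a complex IV subunit first assigned to complex I, stood at 2418 and 2092 CPM in melanoma cells, 583 and 512 CPM in CAFs and 733 and 586 CPM in macrophages. Cox5b, a nuclear complex IV subunit, was at 378 and 398 CPM in CAFs, a log2 difference of -1.84 and -1.69. In macrophages Ndufa5 of complex I was at 197 and 161 CPM, or -1.78 and -1.75, and Ndufa4 at -1.72 and -1.84. In the other direction, in macrophages Cox6a1 was above melanoma by 0.36 and 0.31, Atp5k by 0.30 and 0.16 and Ndufa7 by 0.18 and 0.12 on the log2 scale, and none of these reached 1.5-fold.

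**Figure D2:**
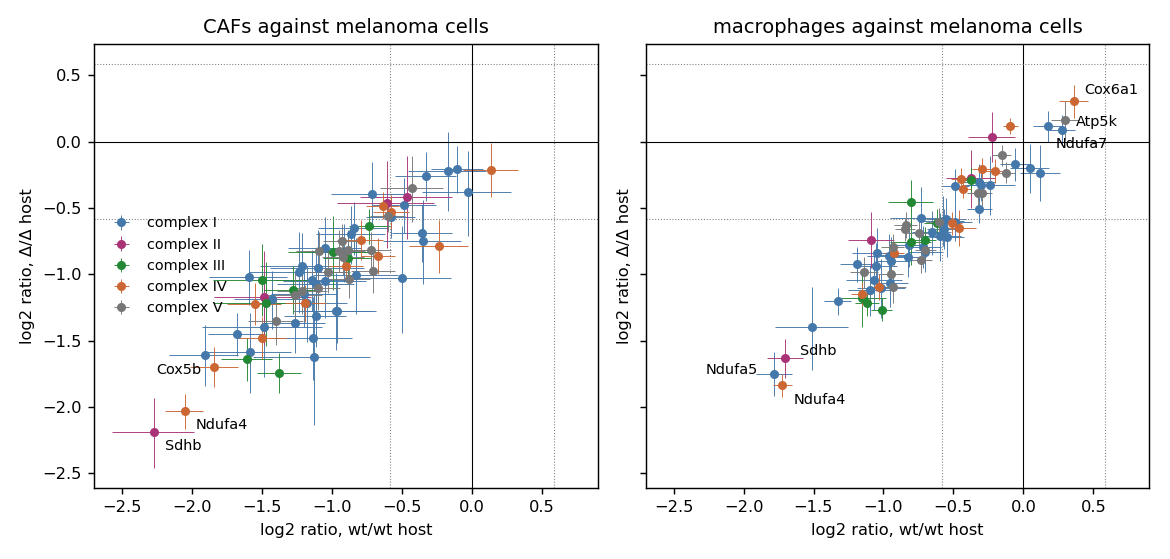
Log2 difference of each nuclear-encoded member from melanoma cells, in CAFs and in macrophages, by library. Members of CAFs lie mostly below 0, with Sdhb at -2.27 and -2.19, and Cox6a1 in macrophages lies at 0.36 and 0.31.

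Other genes of the pathway, from lists that hold no member, are counted here against the same background of 37% of all genes lower in CAFs and 43.3% in macrophages. These counts carry the same lean towards lower. Of mitochondrial ribosomal protein genes, 59 of 77 were lower in CAFs and 50 of 77 in macrophages. Genes for mitochondrial DNA upkeep and transcription gave 10 and 11 of 23, near the background. Assembly factors gave 28 and 26 of 41, and electron carriers with ubiquinone synthesis 11 of 14 in both. Cytosolic ribosomal proteins gave 8 of 79 in CAFs and 29 of 79 in macrophages.

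Nuclear members differed little between the genotypes of the host. The log2 KO to WT ratio of the nuclear sum was -0.07 (-0.08 to -0.07) in melanoma cells, -0.05 (-0.08 to -0.02) in CAFs and -0.07 (-0.08 to -0.05) in macrophages. Between Xist+Y- cells, 159 WT and 60 KO CAFs and 807 WT and 98 KO macrophages, it was 0.004 (-0.05 to 0.05) in CAFs and -0.002 (-0.04 to 0.03) in macrophages. In melanoma cells complex II had the lowest ratio, at -0.20, with complex V at -0.11, complex IV at -0.10, complex I at -0.04 and complex III at 0.03. Cyc1, a complex III subunit that the choice by symbol leaves out, was at -0.17 (-0.21 to -0.13) in these cells. In macrophages complex V was lowest, at -0.13.

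Few single members passed 1.5-fold. In melanoma cells 0 of 75 members tested were higher and 2 were lower in KO, where 4.36% of all genes were higher and 2.78% lower. In CAFs 1 of 58 was higher and 0 were lower, against 7.36% and 9.03% of all genes. In macrophages 0 of 74 were higher and 2 were lower, against 3.9% and 3.36%. These shares were at or under the background.

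Sdhd, the membrane anchor of complex II (chr9:50596357-50603812, GRCm38), stood at 263 and 170 CPM in melanoma cells of WT and KO, a log2 ratio of -0.63 (-0.69 to -0.57). It was also below WT in CAFs, at 94.1 and 75.6 CPM (-0.32, -0.81 to 0.18), and in macrophages, at 124 and 102 CPM (-0.28, -0.54 to -0.02). Of the other complex II genes in melanoma cells, Sdha was at -0.27, Sdhc at -0.13 and Sdhb at -0.05, so all 4 were below 0.

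Atp5k, the e subunit of ATP synthase (chr5:108433244-108434448, GRCm38), was lower in KO in each of the 3 classes. It was at 302 and 199 CPM in melanoma cells (-0.61, -0.66 to -0.55), at 225 and 156 CPM in CAFs (-0.53, -0.86 to -0.20) and at 372 and 222 CPM in macrophages (-0.74, -0.91 to -0.57). Ndufa3, an accessory subunit of complex I, was at 176 and 106 CPM in macrophages (-0.73), at 162 and 125 CPM in melanoma cells (-0.37) and at 144 and 107 CPM in CAFs (-0.42). Cox7c of complex IV was at 1143 and 883 CPM in melanoma cells, 719 and 487 CPM in CAFs and 805 and 577 CPM in macrophages, or -0.37, -0.56 and -0.48. In each of the 3 classes the interval of the ratio lay below 0 for these 3 genes. The next members below WT were Cox6c in melanoma cells (-0.35), Cox6a1 (-0.36) and Ndufc2 (-0.35) in CAFs, and Ndufa1 (-0.47) and Atp5e (-0.41) in macrophages. Among Xist+Y- macrophages the order of WT and KO was the same. Atp5k was at 384 and 264 CPM, Ndufa3 at 173 CPM (155 to 192) and 112 CPM (74.5 to 162) and Cox7c at 807 and 617 CPM. In Xist+Y- CAFs Atp5k was at 226 CPM (191 to 266) and 140 CPM (92.0 to 203). Ndufa3 was there at 142 CPM (114 to 174) and 124 CPM (79.5 to 185), and the intervals of both genes overlapped. Cox7c was at 714 CPM (651 to 782) and 491 CPM (398 to 601) in these CAFs, without overlap.

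Members above WT were fewer in melanoma cells (25 of 75) and macrophages (25 of 74) and close in number to those below in CAFs (28 of 58). Over all genes tested, 4480 of 9157 were above WT in melanoma cells, 1484 of 3127 in macrophages and 633 of 1318 in CAFs. In melanoma cells Cox7a2l, counted with complex IV by its symbol, was at 303 and 395 CPM (0.38). Uqcrq of complex III was at 0.25, and Ndufa11 and Ndufa7 of complex I at 0.21 and 0.18. Ndufv3, an accessory subunit of the NADH-binding part of complex I, was at 142 and 216 CPM in CAFs (0.60, 0.25 to 0.95), at 0.12 in macrophages and at 0.03 in melanoma cells. Among Xist+Y- CAFs Ndufv3 was at 146 CPM (118 to 179) and 202 CPM (143 to 276), with intervals that overlapped. Complex I also gave Ndufb9, at 0.40 in CAFs and 0.30 in macrophages, Ndufb8 at 0.29 in CAFs and Ndufv1 at 0.22 in macrophages. Complex IV gave Cox5a at 0.28 in CAFs, and Cox8a at 0.23 and Cox4i1 at 0.20 in macrophages. Uqcrc1, a core subunit of complex III, was at 130 and 160 CPM in macrophages (0.30) and at -0.05 in melanoma cells. Ndufa11 was above WT in CAFs at 0.41 and stood at 0.04 (-0.15 to 0.22) in macrophages. Atp5g2 was at 0.02, 0.07 and -0.10 in melanoma cells, CAFs and macrophages. Of the members shown above with the NRF1 letters, Atp5k and Ndufa11 thus had opposite directions in melanoma cells.

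**Figure D3:**
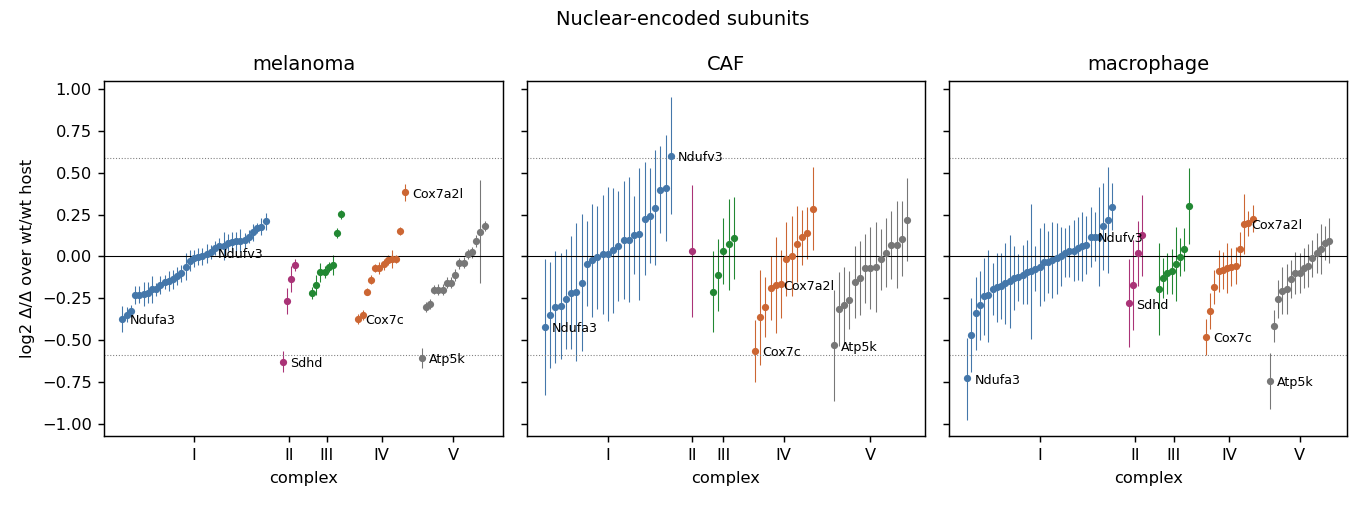
Log2 KO to WT ratio of each nuclear-encoded member, by complex and cell class. Most members lie near 0, with Sdhd at -0.63 and Atp5k at -0.61 in melanoma cells and Ndufv3 at 0.60 in CAFs.

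Over the 58 nuclear members tested in all 3 classes, 20 (34.5%) were below WT in every class and 10 were above it in every class. Of 1000 other genes tested in all 3, 258 (25.8%) were below and 235 above. The 20 included 8 genes of complex V, among them Atp5e (-0.30, -0.26 and -0.41) and Atp5f1 (-0.28, -0.29 and -0.07). The shortest transcripts had low ratios. Atp5k has a median transcript length of 321.5 nt, and other genes under 400 nt had median ratios of -0.24 in melanoma cells (14 genes), -0.25 in CAFs (8) and -0.37 in macrophages (8). For genes of 400 to 600 nt, the range of Ndufa3 (433 nt) and Cox7c (540 nt), they were -0.01 (300 genes), 0.07 (93) and -0.06 (164). Genes of 600 to 1000 nt had 0.01, 0.00 and -0.03. Those of 1000 to 2000 nt had -0.03, -0.03 and -0.05, and those of 2000 nt or more 0.00, -0.03 and 0.03. Ndufa6, the other member tested under 400 nt (382 nt), was at 0.09 in melanoma cells, -0.21 in CAFs and 0.06 in macrophages. The part of length in these ratios was not tested.

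All 13 mitochondrial members were below WT in melanoma cells, where the mitochondrial sum had a log2 ratio of -0.21, and none of them passed 1.5-fold. The lowest were mt-Nd4l at -0.56, mt-Co3 at -0.47 and mt-Nd2 at -0.43, and the nearest to 0 were mt-Atp6 and mt-Nd1, both at -0.04. Between them lay mt-Nd5 (-0.38), mt-Nd3 (-0.31), mt-Co1 (-0.30), mt-Atp8 (-0.28), mt-Nd4 (-0.26), mt-Cytb (-0.20), mt-Nd6 (-0.15, -0.34 to 0.04) and mt-Co2 (-0.14). Reads of mt-Nd4l and mt-Nd4, and of mt-Atp8 and mt-Atp6, cannot be fully told apart, since the genes overlap. In CAFs the sum was at -0.11 and in macrophages at 0.00 (-0.01 to 0.01), and 2 of 11 members in CAFs (mt-Nd3 and mt-Nd5) and 1 of 12 in macrophages (mt-Nd3) were 1.5-fold lower, where 9.03% and 3.36% of all genes were. In Xist+Y- CAFs both were below WT by less than 1.5-fold, with mt-Nd3 at 828 and 579 CPM and mt-Nd5 at 316 and 222 CPM. In Xist+Y- cells the sums were at 0.09 in both classes, above WT. With no limit on mitochondrial UMIs the sums were at -0.17 in melanoma cells, -0.08 in CAFs and -0.02 in macrophages, and with a limit of 15% the melanoma value was -0.0975.

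The complexes did not move alike in the host classes. Mitochondrial complex I was at -0.33 in CAFs and -0.30 in macrophages and complex III, which is mt-Cytb alone, at -0.31 and -0.24. Complex IV was at -0.01 and 0.11, and complex V at -0.08 and 0.04. The catalytic subunit mt-Co1 was at 8554 and 9895 CPM in macrophages (0.21, 0.18 to 0.24), at 5475 and 5628 CPM in CAFs (0.04, -0.02 to 0.10) and at 7723 and 6263 CPM in melanoma cells (-0.30, -0.31 to -0.29). Its neighbour in function mt-Co2 was at 0.13 in macrophages, 0.08 in CAFs and -0.14 in melanoma cells. In contrast mt-Nd2 of complex I was at -0.43 in melanoma cells, -0.39 in CAFs and -0.40 in macrophages. The macrophage values of mt-Co1 were also higher in KO among Xist+Y- cells, at 8737 and 11046 CPM. In Xist+Y- CAFs all the complex IV genes of this genome lay above WT. The mt-Co1 values were 5514 CPM (5335 to 5697) and 6911 CPM (6545 to 7291). For mt-Co2 they were 5443 and 6585 CPM, and for mt-Co3 6917 and 7593 CPM. Over all CAFs mt-Co3 alone lay below WT, at 7014 and 6448 CPM.

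The widest mitochondrial difference was in mt-Nd3, a membrane subunit of complex I (mitochondrial genome, 9459 to 9806, GRCm38). Its levels in WT and KO CAFs were 812 and 378 CPM (-1.10, -1.30 to -0.91), at 1034 and 496 CPM in macrophages (-1.06, -1.17 to -0.95) and at 1170 and 675 CPM in endothelial cells (-0.79, -1.22 to -0.39). In melanoma cells it was at 828 and 669 CPM (-0.31, -0.34 to -0.27). As a share of mitochondrial UMIs, mt-Nd3 took 2.22% (2.05 to 2.40) in WT and 1.12% (1.0 to 1.24) in KO CAFs, 2.11% and 1.01% in macrophages, and 1.31% and 1.22% in melanoma cells. The KO host classes were thus near the melanoma share and the WT host classes above it. With no limit on mitochondrial UMIs the ratios were -1.05 in CAFs and -1.0 in macrophages.

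The mt-Nd3 level also differed between KO cells by sex signs. Among CAFs mt-Nd3 was at 828 CPM (760 to 901) in WT cells with Xist, 579 CPM (477 to 697) in KO cells with Xist and 339 CPM (274 to 415) in KO cells with a Y-linked UMI. Among macrophages the values were 1057 CPM (1012 to 1103), 673 CPM (575 to 783) and 423 CPM (357 to 498). The KO cells with Xist lay below WT and above the KO cells with a Y-linked UMI, and none of these intervals overlapped within a class. Since each pool held 2 tumours and WT had no cell with a Y-linked UMI, host genotype and the individual tumour cannot be told apart.

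**Figure D4:**
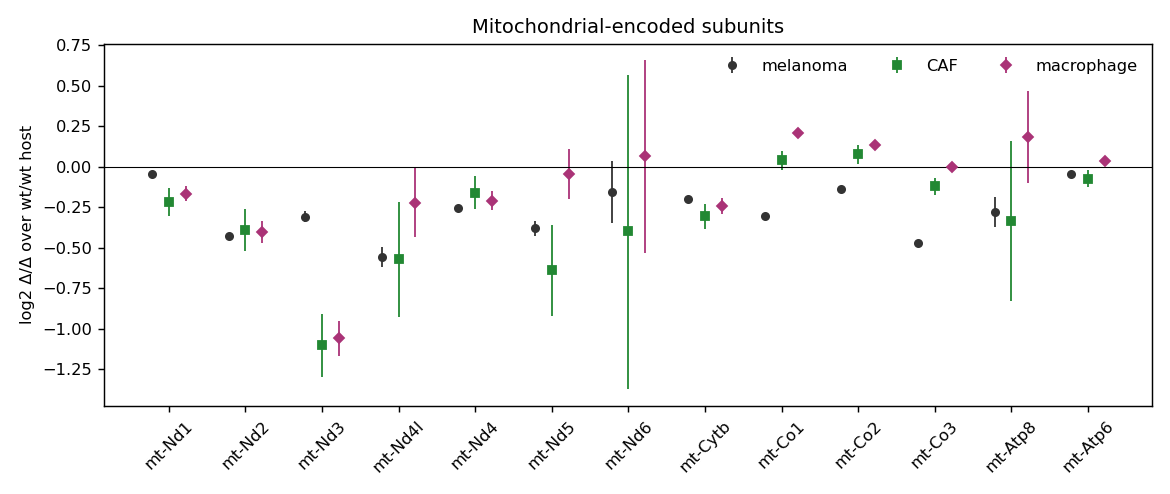
Log2 KO to WT ratio of the 13 mitochondrial-encoded members by cell class, with 95% counting intervals. mt-Nd3 lies at -1.10 in CAFs and -1.06 in macrophages but at -0.31 in melanoma cells, and mt-Co1 lies above 0 in macrophages and below 0 in melanoma cells.

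Several complex IV and V subunits come in alternative forms that are used in particular tissues or conditions. The common forms carried nearly all UMIs: Cox4i1 stood at 1260 and 1248 CPM in melanoma cells, and Cox4i2, a form known from lung and smooth muscle and from low oxygen, at 0.158 and 0.247 CPM. In CAFs Cox4i2 had 18 UMIs in WT and 45 in KO, or 23.5 and 49.3 CPM (1.07, 0.25 to 1.94). Cox6a2, the heart and muscle form, had 4 UMIs in 4 WT melanoma cells and 93 UMIs in 76 KO melanoma cells, or 0.210 and 4.59 CPM (4.45, 3.04 to 6.35), with at most 4 UMIs in a cell. Its common form Cox6a1 was at 261 and 258 CPM in the same cells. Cox7a1, another muscle form, was at 17.5 and 15.8 CPM in macrophages and 3.52 and 4.0 CPM in melanoma cells. Cox8b had 1 and 8 UMIs in melanoma cells, and Cox6b2 had 1 and 7 UMIs in CAFs, too few for a ratio to be read. The c subunit genes Atp5g1, Atp5g2 and Atp5g3 were at 0.18, 0.02 and -0.11 in melanoma cells.

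Ndufa4l2, the hypoxia-induced relative of Ndufa4 that the member rule leaves out, had levels of 255 and 578 CPM in WT and KO CAFs (1.18, 0.94 to 1.42), while Ndufa4 was at 583 and 512 CPM (-0.19, -0.38 to 0.00). The relative made up 30.4% (26.9 to 34.1) of the UMIs of the pair in WT CAFs and 53.0% (49.9 to 56.2) in KO CAFs, and 58 of 199 and 118 of 235 cells had a UMI of it. The level differed among KO CAFs. Xist+Y- KO CAFs stood at 238 CPM (174 to 317), within the interval of Xist+Y- WT CAFs at 268 CPM (230 to 311), and KO CAFs with a Y-linked UMI at 631 CPM (540 to 732). Cox4i2 was at 23.1 CPM in Xist+Y- WT CAFs (15 UMIs), 20.7 CPM in Xist+Y- KO CAFs (4 UMIs) and 51.0 CPM in KO CAFs with a Y-linked UMI (14 UMIs).

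Genes that serve the mitochondrial genome were also below WT in melanoma cells. Of 26 genes for mitochondrial DNA upkeep and transcription 22 were below 0, with a median of -0.21 where all genes had -0.01. Mgme1, a mitochondrial nuclease, was at -0.74 and Mterf3, a regulator of mitochondrial transcription and ribosomes, at -0.66, and these were the 2 past 1.5-fold. Tfam, which packages mitochondrial DNA, was at -0.15, and Polrmt, the mitochondrial RNA polymerase, at -0.55. Ppargc1a, a coactivator of mitochondrial biogenesis that is no member, was at 200 and 139 CPM (-0.52). Medians were -0.12 for 17 citric acid cycle genes, -0.14 for 15 electron carriers and -0.11 for 43 assembly factors, with Sdhaf1 (0.70) and Uqcc3 (0.72) above 1.5-fold, and -0.07 for 77 mitochondrial ribosomal proteins. Cytosolic ribosomal proteins had 0.12 and glycolysis and hypoxia genes 0.09, with 3 of 28 past 1.5-fold higher and 0 lower. Of all genes in melanoma cells 4.36% were past 1.5-fold higher and 2.78% lower. In CAFs 16 of 20 glycolysis and hypoxia genes were past 1.5-fold higher and 0 lower, against 7.36% and 9.03% of all genes, with a median of 0.89. The genes of these lists were not counted in Xist+Y- cells. In macrophages the median of 51 mitochondrial ribosomal proteins was -0.06 and that of 22 glycolysis and hypoxia genes 0.32. In CAFs only 2 citric acid cycle genes and 0 genes of mitochondrial DNA upkeep had enough UMIs to be tested.

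Cells with under 2% mitochondrial UMIs were 172 (4.45%) of kept WT cells and 324 (9.11%) of kept KO cells. Their nuclear member RNA differed from that of the other cells of the class in a direction that depended on the class. In melanoma cells the nuclear sum was 50681 CPM in 47 such WT cells and 42731 CPM in the others (0.25, 0.21 to 0.28), and 42769 and 40569 CPM in KO, with 162 such cells (0.08, 0.06 to 0.09). They held 0.191 and 0.177 mitochondrial UMIs per nuclear member UMI, which the choice of cells sets. In CAFs the direction was the other way, at -0.30 in WT (13 cells) and -0.34 in KO (39 cells). Macrophages were at -0.003 (-0.08 to 0.08, 35 cells) and -0.24 (43 cells). With median-ratio size factors CAFs were at -0.11 and -0.18 and KO macrophages at -0.09.

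The low-mitochondrial melanoma cells differed from the others in more than this. Their median was 2513 UMIs against 11401 in WT, and 6356 against 10825 in KO. Malat1, a nuclear RNA, was at 4986 and 3422 CPM in WT and at 11285 and 4256 CPM in KO, and globin RNA at 8525 and 459 CPM in WT. Ribosomal protein RNA was at 245647 and 208548 CPM in WT and at 273591 and 222897 CPM in KO. The part of these in the difference was not tested. Among cells of 2000 to 8000 UMIs the nuclear difference was 0.36 in WT and 0.20 in KO.

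Directions in the 2 libraries were counted for the members only, not over all genes. Of 72 members tested, 36 were above 0 in both libraries, 12 were below 0 in both and 24 were opposite. The median was 0.24 in WT and 0.05 in KO, where all genes had -0.15 and -0.19. Cytosolic ribosomal protein genes had medians of 0.25 and 0.30 in the same cells, as high as the members or higher. Ndufa7 (0.69 and 0.68) and Ndufa6 (0.99 and 0.63) of complex I and Cox7a2l (0.61 and 0.61) were 1.5-fold higher in both, which is 3 of 72 against 0.484% of all genes, and 0 were lower, against 9.69%. Complex IV was at 0.31 and 0.13 and complex III at 0.30 and 0.12, while complex V was at 0.18 and 0.00. The ATP synthase alpha subunit Atp5a1, named after its values were seen, was at -0.40 and -0.82.

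Over the whole range of mitochondrial UMIs the nuclear sum of melanoma cells did not follow a single direction. It was 38397 CPM in WT and 38333 CPM in KO at 3 to 4%, 44293 and 42538 CPM at 6 to 7.5%, and 51739 and 50145 CPM at 10 to 15%, and came to 40964 and 40550 CPM above 15%. The cells above 15% had medians of 1839 and 2014 UMIs and Malat1 at 28665 and 28370 CPM. At the other end, below 0.5%, the libraries differed, with 59041 CPM in 17 WT cells and 44927 CPM in 75 KO cells, and Malat1 at 520 and 10852 CPM. CAFs had 17874 CPM in WT and 16352 CPM in KO at 1 to 2%, and 23431 and 24699 CPM at 5 to 6%. Macrophages spanned 25939 to 27826 CPM in WT between 2 and 10%. In KO they rose from 23786 CPM at 2 to 3% to 27155 CPM at 7.5 to 10%.

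**Figure D5:**
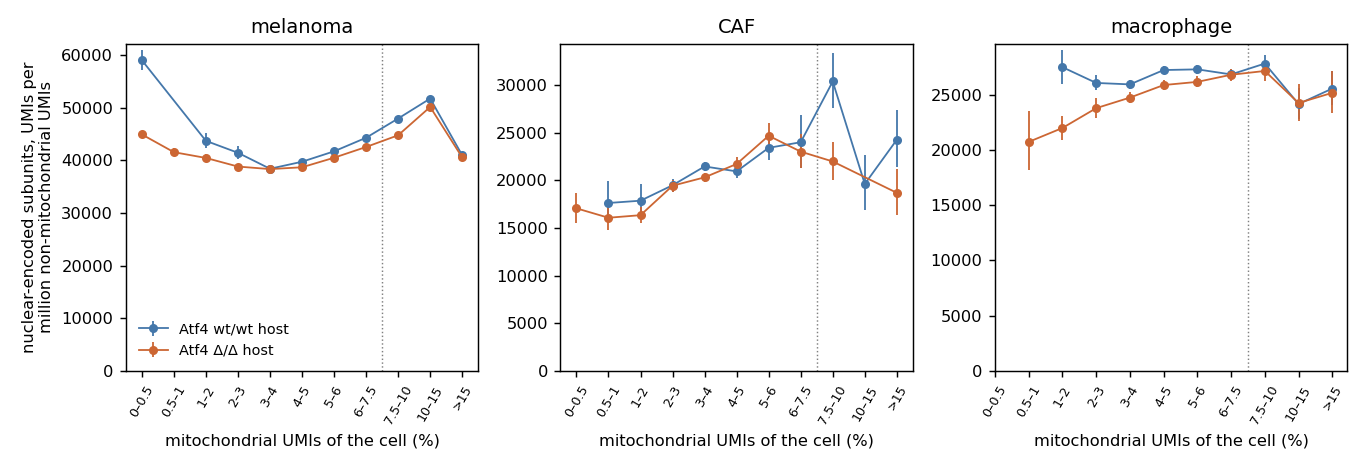
Nuclear-encoded sum in CPM by percent of mitochondrial UMIs, for each class and library, with 95% counting intervals and a dotted line at the 7.5% limit. In melanoma cells the sum is 38397 and 38333 CPM at 3 to 4%, reaches 51739 and 50145 CPM at 10 to 15% and is lower again above 15%.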

How the data were processed

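2 libraries of single-cell RNA were analysed, made by 10x Genomics 3′ chemistry. The authors deposited raw UMI counts per gene and barcode, per the labels from Cell Ranger (version 3.1.0) on a mouse GRCm38 reference, and used Seurat (version 3.2.1) afterwards. Matrices hold 31053 genes. The limits of the study were used: 200 to 5000 genes, and a mitochondrial share of 7.5% or less. A cell was gated to a class when at least 3 different markers of it had a UMI and they summed to at least 3 times those of each other class. The members, marker lists and gene lists were chosen with earlier results of these data known.

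The UMIs of a class were added up within a library and divided by its non-mitochondrial UMIs, times 1000000 (CPM), so that cells did not count as replicates. Sums have exact Poisson intervals, ratios exact conditional binomial intervals and shares Clopper-Pearson intervals, at 95%, for counting error only. Counts under 3 were set to 3 in ratios. A gene was tested with at least 200 UMIs over both sides and counted when past 1.5-fold. For low-mitochondrial cells at least 20 UMIs had to be expected on the smaller side. Named genes are all mitochondrial members, the 5 nuclear members per class and direction with the most extreme ratio, the 3 per direction for each host class against melanoma, the alternative subunits, the Sdh genes and Ndufa4l2. Doublets were called by Scrublet in scanpy (2.65% of WT and 1.51% of KO barcodes) and kept, and removed in an alternative. Transcript lengths and positions are from GENCODE on GRCm38. Python 3.11.15, numpy 2.4.6, pandas 2.3.3, scipy 1.17.1, scanpy 1.11.5 and matplotlib 3.10.9 were used, and the calculations were tested on simulated data. The promoter letters were shortened to their present form after longer forms had been searched. Alternatives covered the limits, the gate, the scale, doublets, free RNA and host sex. The free RNA profile was the summed UMIs of all barcodes of a library, not of empty droplets. Its amount was set by counting all melanoma marker UMIs of a host class as free RNA.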

Additional observations from a re-analysis of the deposited data

Results flagged for a closer look

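Of 155 pairs of member and class compared, 2 mitochondrial genes had opposite directions in melanoma cells and macrophages at 0.1 or more on the log2 scale. Only members were compared in this way, so the count has no share of all genes to be set against. The log2 KO to WT ratio of mt-Co1 was -0.30 in melanoma cells and 0.21 in macrophages, and that of mt-Co2 was -0.14 and 0.13. The difference was not tested, since each genotype had 1 library. With no limit on mitochondrial UMIs mt-Co1 was at -0.26 and 0.21, and mt-Co2 at -0.07 and 0.10.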

How the results depend on the processing

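No paired analysis was possible because there was only 1 library on each side. Values are log2. The alternative with cells of 2000 to 8000 UMIs was chosen after seeing the data. For KO against WT the nuclear ratio in melanoma cells was -0.0649 with median-ratio size factors, -0.061 on all UMIs, -0.0377 without ribosomal protein genes in the scale and -0.0412 in cells of 2000 to 8000 UMIs. In CAFs it was -0.0977 with the loose gate, -0.0040 without ribosomal protein genes and 0.00373 in Xist+Y- cells, and in macrophages -0.0508 with size factors and -0.00223 in Xist+Y- cells. The mitochondrial ratio in melanoma cells was -0.168 with no mitochondrial limit, -0.0975 at 15%, -0.201 with size factors, -0.197 on all UMIs, -0.174 without ribosomal protein genes and -0.239 in cells of 2000 to 8000 UMIs. In CAFs it was -0.0788 with no limit, -0.161 with the loose gate, -0.0624 without ribosomal protein genes, -0.141 as a mean over cells, -0.144 with free RNA subtracted, -0.14 in cells of 2000 to 8000 UMIs and 0.0886 in Xist+Y- cells. In macrophages it was -0.0167 with no limit, 0.0196 with size factors, 0.0188 with free RNA subtracted and 0.0927 in Xist+Y- cells.

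For CAFs against melanoma the WT and KO values were -1.08 and -1.08 with no limit, -1.09 and -1.08 at 15%, -0.91 and -0.94 with the loose gate, -0.57 and -0.54 with size factors, -1.0 and -0.99 on all UMIs, -1.09 and -1.06 without ribosomal protein genes, and -1.12 and -1.13 with free RNA subtracted, with -1.04 in KO under the strict gate and -0.99 in WT in cells of 2000 to 8000 UMIs. For macrophages they were -0.73 and -0.73 with no limit, -0.74 and -0.73 at 15%, -0.12 and -0.10 with size factors, -0.79 and -0.82 without ribosomal protein genes, -0.74 and -0.74 with free RNA subtracted and -0.59 and -0.63 in cells of 2000 to 8000 UMIs, with -0.66 in WT under the loose gate, -0.65 on all UMIs and -0.69 as a mean over cells.

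Low-mitochondrial melanoma cells gave 0.19 and 0.0127 with no limit, 0.18 and 0.0108 at 15%, 0.50 and 0.38 with size factors, 0.32 and 0.15 on all UMIs, 0.32 and 0.19 without ribosomal protein genes, 0.20 and 0.0945 as a mean over cells, 0.48 and 0.11 with a limit of 1%, 0.14 and 0.0247 with 3%, and 0.36 and 0.20 in cells of 2000 to 8000 UMIs, with 0.20 in WT under the strict gate. The same difference ranged from -0.41 to -0.11 in WT CAFs, from -0.42 to -0.18 in KO CAFs and from -0.29 to -0.09 in KO macrophages, below 0 in 14 of 14 alternatives each. In WT macrophages it ranged from -0.69, with a limit of 1% that left 3 cells, to 0.06, with the sign of the main value in 10 of 14. Members past 1.5-fold in either direction were 2 in melanoma cells, 3 in CAFs and 3 in macrophages, both genomes together, and 0, 1 and 1 past 2-fold. With at least 50 UMIs CAFs had 7. The share of all genes was not counted at 2-fold or at 50 UMIs, so these counts have no background to be set against. The CAF nuclear and mitochondrial signs turned in Xist+Y- cells, and the causes were not tested.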
